A study of Homo sapiens with 9 samples.

Results

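IGFBP5, PAPPA2, FOXO1 and FBXO32 are 4 of the 14884 genes with a symbol that were measured in BT-549 cells given a microRNA. They belong to the insulin-like growth factor (IGF) axis and to the FOXO transcription factor branch of its signalling. They were picked by symbol with their signals on these arrays already known, so their differences between groups are a description. Limma calls that include them are reported below, and nothing is read from these. Each was read by 1 feature of the array, so no choice between features was needed.

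BT-549 cells are a line from a human breast cancer of the triple-negative kind. Cells received a synthetic mature miR-150-5p (mimic), a non-specific negative control small RNA (NC), or the transfection lipid with no RNA (mock), with 3 arrays in each group. All groups were exposed to Lipofectamine RNAiMAX. Both small RNAs were used at 50 nM, the medium was changed at 24 h and RNA was collected at 72 h. No label states whether replicates were separate cultures, so p-values rest on a spread that may be technical. RNA came from whole cultures of 1 line, so fewer cells with a transcript and less transcript per cell cannot be told apart.

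IGFs bind a receptor tyrosine kinase, IGF1R, that signals through PI3K and AKT. Secreted IGF binding proteins hold the ligand, and pappalysin proteases release it by cutting the binding protein. AKT phosphorylates FOXO1 and keeps it out of the nucleus. When AKT is quiet, FOXO1 enters the nucleus and switches on genes of stress defence, cell cycle arrest and protein breakdown. FBXO32, also called atrogin-1, is one such target, best known from wasting muscle. MicroRNAs lower messages by pairing their seed with target transcripts.

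The stretches around the start sites of IGFBP5, PAPPA2 and FOXO1 are shown because these genes lie at different steps of the axis and differed between the groups in different ways. They come from RefSeq on GRCh38.p14 and run 5′ to 3′ on the gene's strand, 300 bases from 250 before to 50 after the start. Capitals mark matches to the TATA box variant TATTTAA, to the forkhead core AAACA and to the CCAAT box, which reads ATTGG where it lies on the reverse strand. The FOXO consensus GTAAACA was searched too, as were the TATA box TATAAA and the E-box of MYC, CACGTG, all on both strands. AAACA lies inside GTAAACA, so a match to the longer word counts for both.
IGFBP5 promoter: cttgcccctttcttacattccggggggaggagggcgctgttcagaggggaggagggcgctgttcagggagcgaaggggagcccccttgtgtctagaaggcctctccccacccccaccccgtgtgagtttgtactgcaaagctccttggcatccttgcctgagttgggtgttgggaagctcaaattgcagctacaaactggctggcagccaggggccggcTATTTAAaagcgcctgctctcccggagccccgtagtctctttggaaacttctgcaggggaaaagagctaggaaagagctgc
PAPPA2 promoter: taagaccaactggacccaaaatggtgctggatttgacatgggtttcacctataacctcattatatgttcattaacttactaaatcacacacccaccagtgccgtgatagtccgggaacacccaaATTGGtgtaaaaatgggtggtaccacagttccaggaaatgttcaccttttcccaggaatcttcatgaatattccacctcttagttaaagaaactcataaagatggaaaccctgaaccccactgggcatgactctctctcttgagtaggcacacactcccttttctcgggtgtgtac
FOXO1 promoter: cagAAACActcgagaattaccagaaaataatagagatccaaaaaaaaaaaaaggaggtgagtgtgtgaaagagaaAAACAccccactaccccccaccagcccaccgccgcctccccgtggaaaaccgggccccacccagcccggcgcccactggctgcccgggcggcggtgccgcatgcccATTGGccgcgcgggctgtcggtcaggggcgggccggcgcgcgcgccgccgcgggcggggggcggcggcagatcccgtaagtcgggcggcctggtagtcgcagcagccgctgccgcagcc
The IGFBP5 window lies at chr2:216695500-216695799 on the minus strand. The PAPPA2 window lies at chr1:176462925-176463224 on the plus strand. The FOXO1 window lies at chr13:40666592-40666891 on the minus strand. FBXO32 is named only.

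The 3 windows differed in base composition. The FOXO1 window held 68.0% G and C and 33 CpG pairs, the IGFBP5 window 59.0% and 9 pairs, and the PAPPA2 window 44.0% and 3 pairs. The medians over 35093 RefSeq promoters of that length were 58.67% and 14 pairs. The IGFBP5 window held TATTTAA 31 bases before the start, and 4.52% of promoters hold this word. PAPPA2 and FOXO1 each held the CCAAT box on the reverse strand, 126 and 69 bases before the start, and 34.61% of promoters hold it. AAACA, the core of forkhead sites, stood 247 and 175 bases before the FOXO1 start and in neither other window, against 44.43% of promoters. The FOXO consensus GTAAACA matched in 0 of the 3 windows and in 3.42% of promoters. TATAAA matched in 0 of the 3 against 11.54% of promoters, and the E-box CACGTG in 0 against 7.26%. These are matches of letters only.

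Signals are log2 values, so a difference of 1 is a doubling, and the signal of a feature cannot be set against that of another. The arrays were alike, with medians of 2.43 to 2.48. Across features, which are not independent, Pearson's r was 0.981 to 0.989 within groups and 0.977 to 0.986 between them. Of 10 mesenchymal markers 4 were measured (VIM, FN1, AXL and CD44), and their group means were at or above 7.07. Of 10 luminal and hormone receptor markers 8 were measured, with the estrogen and progesterone receptors ESR1 and PGR at 1.77 to 2.24, GATA3 at 5.43 to 5.84 and KRT18 at 7.42 to 7.73. Of 8 blood and endothelial markers 3 were measured (CD14, PECAM1 and VWF), with group means of 2.08 to 2.43. By limma, 0 of these 15 markers passed an adjusted p under 0.05 in any comparison, and 2, 3 and 4 had an unadjusted p under 0.05 in the mimic against NC, the mimic against mock and NC against mock. Of all 14884 genes, 16%, 17.5% and 11% had such an unadjusted p in these comparisons. The mean of 23 small nucleolar RNAs was 6.43, 5.95 and 6.75 in mimic arrays 1, 2 and 3, 5.91, 6.83 and 5.87 in NC arrays, and 5.62, 6.78 and 5.64 in mock arrays. NC 2 and mock 2 stood above the other arrays of their groups in that mean. Without both of them 28 genes passed in NC against mock instead of 96. Without mock 2 alone 112 passed, without NC 2 alone 46 and without mock 1 alone 21. These fits leave out different numbers of arrays, and the cause of the lower counts was not tested. With both left out, the mimic minus NC differences of IGFBP5, PAPPA2, FOXO1 and FBXO32 were -1.43, 1.34, -0.72 and -1.22.

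IGFBP5 encodes a secreted IGF binding protein that also attaches to the extracellular matrix. Its log2 signal was 4.78, 5.02 and 4.76 in mimic arrays 1, 2 and 3, against 6.18, 6.16 and 6.39 in NC arrays and 6.49, 6.44 and 6.90 in mock arrays. Every mimic array lay below every NC array, and every NC array below every mock array. The means were 4.86 ± 0.15 in mimic, 6.24 ± 0.13 in NC and 6.61 ± 0.25 in mock (SD, n = 3 each). The mimic was 2.61-fold lower than NC, a log2 difference of -1.39 ± 0.14 (SE), and its signal was 38.3% of that with NC. Against mock the difference was -1.75 ± 0.14, or 3.37-fold lower. In the whole table, 9 genes had a larger downward difference against NC and 3 against mock. NC was 1.29-fold lower than mock (-0.37 ± 0.14), with a gap of 0.051 between the nearest arrays of NC and mock, and this difference was -0.22 without mock 3.

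PAPPA2 encodes the pappalysin that cleaves IGFBP3 and IGFBP5, and it differed in the opposite direction. Its log2 signal was 4.36, 4.89 and 4.38 in mimic arrays, against 3.12, 3.20 and 3.29 in NC arrays and 3.77, 3.47 and 4.05 in mock arrays. The mimic arrays were the highest, the mock arrays lay in the middle and the NC arrays were the lowest, and no groups overlapped. The means were 4.54 ± 0.30 in mimic, 3.20 ± 0.089 in NC and 3.76 ± 0.29 in mock (SD, n = 3 each). The mimic was 2.53-fold higher than NC (1.34 ± 0.17) and 1.72-fold higher than mock (0.78 ± 0.17). As a rough guide to level, the NC mean lay at the 47.75th percentile of genes, below the median gene. NC was 1.47-fold lower than mock (-0.56 ± 0.17), so the mimic's difference was larger against NC than against mock. In the whole table, 5 genes had a larger upward difference against NC and 104 against mock. Mimic 2 was the highest array, and without it the difference from mock was 0.61.

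FOXO1, the forkhead transcription factor itself, differed less. Its log2 signal was 4.35, 3.83 and 3.83 in mimic arrays, against 4.77, 4.76 and 4.67 in NC arrays and 5.01, 4.65 and 4.68 in mock arrays. All mimic arrays lay below all NC and mock arrays, and NC and mock overlapped. Mimic 1 stood apart from mimic 2 and 3, nearer to the controls. The means were 4.00 ± 0.30 in mimic, 4.73 ± 0.055 in NC and 4.78 ± 0.20 in mock (SD, n = 3 each). The mimic was 1.66-fold lower than NC (-0.74 ± 0.15) and 1.71-fold lower than mock (-0.78 ± 0.15). In the whole table, 117 genes had a larger downward difference against NC and 118 against mock. Without mimic 1 the FOXO1 differences were -0.91 and -0.95. NC and mock did not differ beyond their spread (-0.04 ± 0.15), and the sign of that difference turned, to 0.07, without mock 1.

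FBXO32, the substrate-binding F-box subunit of an SCF ubiquitin ligase, kept the order of IGFBP5. Its log2 signal was 6.67, 6.92 and 6.74 in mimic arrays, against 7.95, 7.99 and 8.06 in NC arrays and 8.51, 8.27 and 8.79 in mock arrays. The 3 groups did not overlap, with mimic lowest and mock highest. The means were 6.78 ± 0.13 in mimic, 8.0 ± 0.057 in NC and 8.52 ± 0.26 in mock (SD, n = 3 each). The mimic was 2.33-fold lower than NC (-1.22 ± 0.13) and 3.35-fold lower than mock (-1.74 ± 0.13). NC was 1.44-fold lower than mock (-0.52 ± 0.13). In the whole table, 20 genes had a larger downward difference against NC and 4 against mock.

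**Figure D1:**
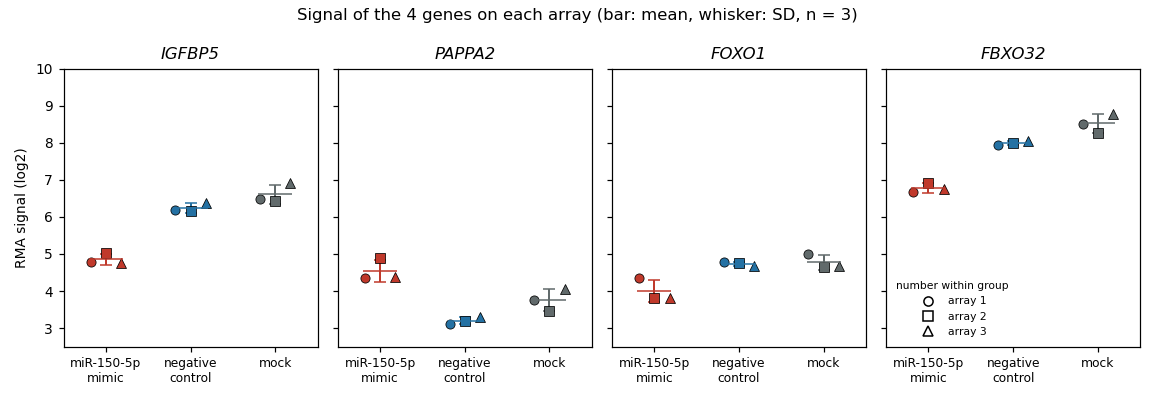
RMA signal (log2) of IGFBP5, PAPPA2, FOXO1 and FBXO32 on each of the 9 arrays, by group (mimic, NC, mock), with the mean as a bar, the SD as a whisker (n = 3) and the marker shape giving the array's number within its group. The mimic arrays lie lowest for IGFBP5, FOXO1 and FBXO32 and highest for PAPPA2, and the panels share an axis but levels of different genes cannot be compared.

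Because these 4 genes were chosen with the same values in view, nothing is read from their calls or from the share that passed. At an adjusted p under 0.05 in limma, 4 of 4 passed in the mimic against NC, where 3.18% of all 14884 genes did (1.76% rose and 1.42% fell). In the mimic against mock 4 of 4 passed, beside 3.9% of all genes (2.28% rose and 1.62% fell). In NC against mock 0 of 4 passed and 3 of 4 had an unadjusted p under 0.05, beside 0.645% of all genes that passed (0.168% rose and 0.477% fell) and 11% with such an unadjusted p. The mimic arrays did not overlap the NC arrays in 4 of 4 genes, beside 18.6% of all genes, nor the mock arrays in 4 of 4, beside 20.2%. NC and mock did not overlap in 3 of 4, beside 12% of all genes. With arrays left out singly, FOXO1 did not pass against NC without mimic 2, mimic 3 or any NC array, nor against mock without mimic 2, mimic 3 or mock 1. PAPPA2 did not pass against mock without any array but mock 3.

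The spread within groups also had a shape. The pooled SD was 0.18 for IGFBP5, 0.25 for PAPPA2, 0.21 for FOXO1 and 0.17 for FBXO32, beside a median of 0.15 over all genes. Mimic 2, NC 3 and mock 3 were the highest arrays of their groups for IGFBP5, PAPPA2 and FBXO32 alike, and mock 2 was the lowest of its group for the same genes. FOXO1 did not share that order and was highest on mimic 1, NC 1 and mock 1. Taking each array's deviation from its group mean, Pearson's r over the 9 arrays was 0.90 between IGFBP5 and FBXO32, 0.88 between IGFBP5 and PAPPA2 and 0.94 between PAPPA2 and FBXO32. It was -0.38, -0.31 and -0.27 between FOXO1 and IGFBP5, PAPPA2 and FBXO32. PAPPA2 thus went with IGFBP5 and FBXO32 within groups and against them between mimic and NC. These r are descriptions over 9 arrays that share their processing. Such values were not particular to these genes, as G3BP2 had 0.92 with PAPPA2 and SLFN5 0.88 with IGFBP5, both described below.

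**Figure D2:**
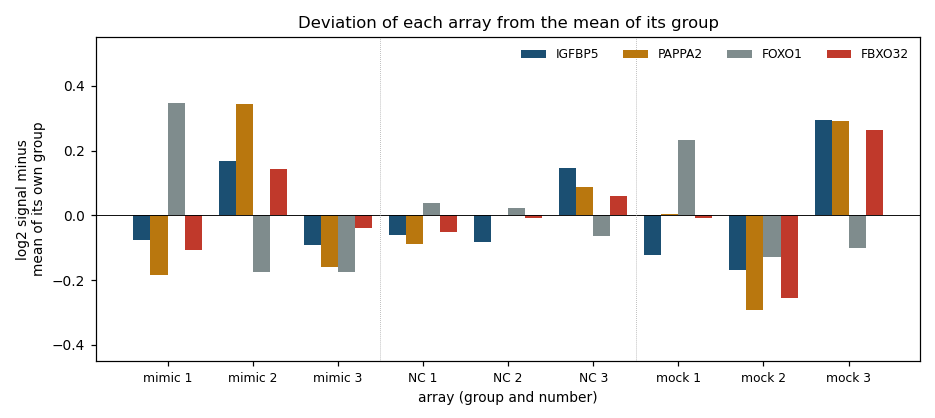
Deviation of each array's log2 signal from the mean of its own group (3 arrays each), for the 4 genes, with arrays ordered mimic, NC, mock. Bars of IGFBP5, PAPPA2 and FBXO32 point up together on mimic 2, NC 3 and mock 3 and down together on mock 2, while FOXO1 is up on mimic 1, NC 1 and mock 1.

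Over the 9 arrays as a whole, IGFBP5 and FBXO32 were each other's closest gene in the table, with Pearson's r = 0.99. The arrays fall into 3 groups, so such an r includes the differences between groups and is a description with no test. Next closest to both was CTSL, the lysosomal protease cathepsin L (r = 0.99 with each), followed by SNAI2 and CD109 (0.98 with each). SNAI2 encodes the transcription factor Slug and CD109 a membrane glycoprotein. The fifth was SLFN5 (0.98), of the Schlafen family, for IGFBP5 and TWIST1 (0.98), a mesenchymal transcription factor, for FBXO32. SNAI2 averaged 5.68 in mimic, 7.04 in NC and 7.40 in mock, and CD109 averaged 5.99 in mimic, 7.62 in NC and 8.14 in mock. After the group means were taken out, r with IGFBP5 was 0.73 for CTSL, 0.61 for SNAI2, 0.40 for CD109 and 0.88 for SLFN5. The genes were picked by an r that includes this part, so a high value is partly built in.

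The genes closest to PAPPA2 were G3BP2 (r = 0.98), a stress granule protein, and DGCR8 (0.98), the partner of Drosha in microRNA processing. SFXN2 (0.97), a mitochondrial carrier, DUSP16 (0.96), a phosphatase of MAP kinases, and PGM2L1 (0.96), a sugar phosphate enzyme, came next. G3BP2 averaged 5.06 in mimic, 4.28 in NC and 4.52 in mock, the order that PAPPA2 had. After the group means were taken out, r with PAPPA2 was 0.92 for G3BP2, 0.86 for DGCR8, 0.76 for SFXN2, 0.67 for DUSP16 and 0.65 for PGM2L1. These genes were picked by an r that includes this part, so the values are no separate support. The genes closest to FOXO1 were CTHRC1 (0.96), a secreted matrix protein, METAP1 (0.95), a methionine aminopeptidase, SAT1 (0.94), of polyamine breakdown, ZNF709 (0.94), a zinc finger gene, and RBL2 (0.94), the retinoblastoma relative p130. An r of at least 0.95 was found for 22 genes with IGFBP5, 9 with PAPPA2, 1 with FOXO1 and 20 with FBXO32.

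**Figure D3:**
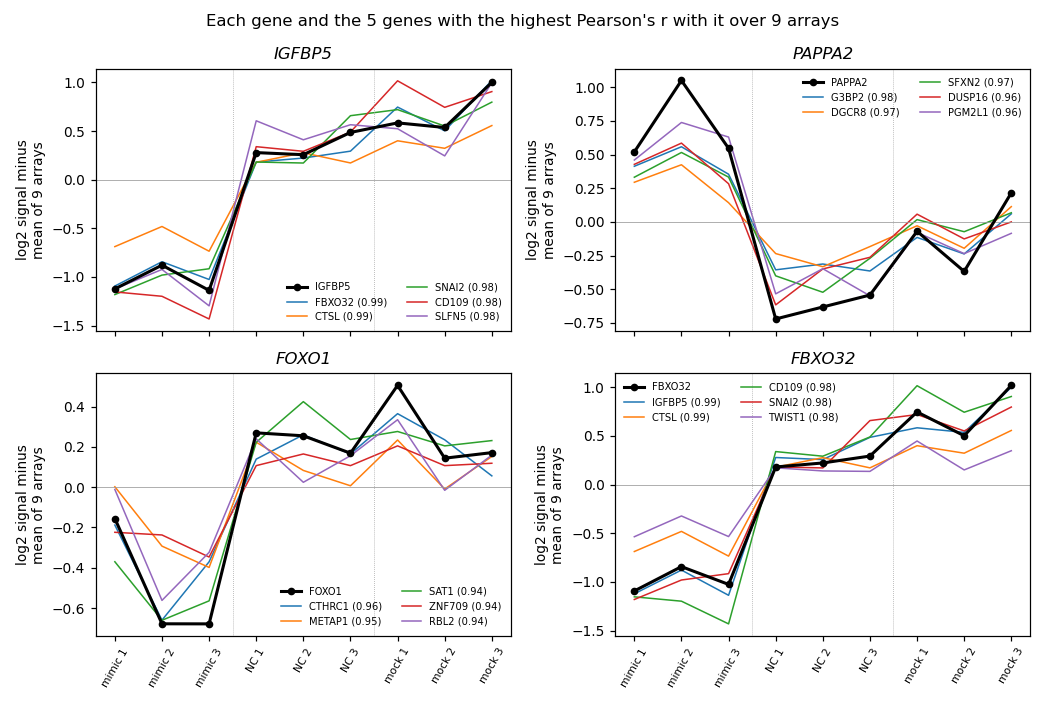
Log2 signal minus the gene's mean of 9 arrays, by array (mimic, NC, mock), for each of the 4 genes (black) and the 5 genes with the highest Pearson's r with it (coloured, r in the legend). IGFBP5 and FBXO32 share FBXO32 or IGFBP5, CTSL, SNAI2 and CD109 as closest genes, the PAPPA2 set has its lowest group means in NC, and the FOXO1 set has them in mimic.

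The other genes of the pathway were taken from 5 lists written from general knowledge, without the 4 genes themselves. Of 33 further IGF axis genes 28 were measured. Against NC, 2 fell, 0 rose and 26 did not pass in the mimic, with a median log2 difference of -0.035, beside -0.0044 over all genes. Against mock, 1 rose and 3 fell (median -0.072, beside 0.00035 over all genes). In NC against mock 0 rose and 1 fell (median -0.066, beside 0.0076). The share called was 7.14%, 14.3% and 3.57% in these comparisons, beside 3.18%, 3.9% and 0.645% of all genes.

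STC1, a stanniocalcin that inhibits pappalysins, fell in both mimic comparisons. Its log2 signal was 7.29, 7.51 and 7.27 in mimic arrays, against 7.97, 8.20 and 8.16 in NC arrays and 8.12, 7.97 and 8.33 in mock arrays. The mimic arrays lay below all others, and NC and mock overlapped. The difference was -0.76 ± 0.12 against NC (limma, adjusted p = 0.00958) and -0.78 ± 0.12 against mock (limma, adjusted p = 0.00804), and both calls held whichever array was left out. Its relative STC2 averaged 6.80 in mimic, 6.66 in NC and 7.37 in mock, and passed in no comparison.

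Of the 6 other IGF binding proteins measured, 4 had a lower mean in the mimic than in NC (median -0.39), beside 7639 of all 14884 genes. Against mock 4 had a lower mean in the mimic (median -0.24), beside 7416 of all 14884 genes. Of the 6, IGFBP4 fell against mock. IGFBP4 averaged 4.74 ± 0.27 in mimic, 5.26 ± 0.17 in NC and 5.49 ± 0.22 in mock (SD, n = 3 each). Its difference was -0.75 ± 0.16 against mock (limma, adjusted p = 0.0361), and the adjusted p reached 0.111 when an array was left out, with the call lost without mimic 1 or 2, NC 1 or mock 1 or 2. IGFBP7 averaged 3.35 in mimic, 3.88 in NC and 4.19 in mock, and IGFBP6 averaged 3.33, 3.78 and 3.55. Neither passed (limma, lowest adjusted p = 0.0639 for IGFBP7 and 0.102 for IGFBP6).

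HTRA1, a secreted serine protease that can cut IGF binding proteins, was the only one of 3 other proteases of the list that passed in any comparison. It averaged 8.41 ± 0.13 in mimic, 8.60 ± 0.11 in NC and 9.14 ± 0.099 in mock (SD, n = 3 each). It fell in the mimic against mock by 0.73 on the log2 scale (limma, adjusted p = 0.00538), a call kept whichever array was left out. It also fell in NC against mock (-0.54 ± 0.099, limma, adjusted p = 0.0482), a call lost whichever of the 9 arrays was left out (up to 0.139). With the replicate numbers as a block the adjusted p of that NC difference was 0.0757. Mimic and NC overlapped for HTRA1, at -0.19.

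Among receptors and their adaptors, IGF1R averaged 6.60 ± 0.27 in mimic, 6.70 ± 0.48 in NC and 6.58 ± 0.089 in mock (SD, n = 3 each), and the ligand IGF1 2.28, 2.35 and 2.36. IGF2R, which clears IGF2, was at 8.12 in mimic, 7.53 in NC and 7.98 in mock without passing (limma, adjusted p = 0.167 against NC). SHC1, the adaptor between receptor kinases and RAS, fell in the mimic against NC (-0.51 ± 0.12, limma, adjusted p = 0.0474). It averaged 8.56 in mimic, 9.08 in NC and 8.87 in mock. When arrays were left out, the call was kept only without NC 2 or mock 3 (up to 0.139). IGF2BP3, a protein that binds IGF2 messenger RNA, rose in the mimic against mock (0.48 ± 0.11, limma, adjusted p = 0.0473). It averaged 5.99 in mimic, 5.86 in NC and 5.51 in mock, and when arrays were left out the call was kept only without mock 3 (up to 0.163).

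**Figure D4:**
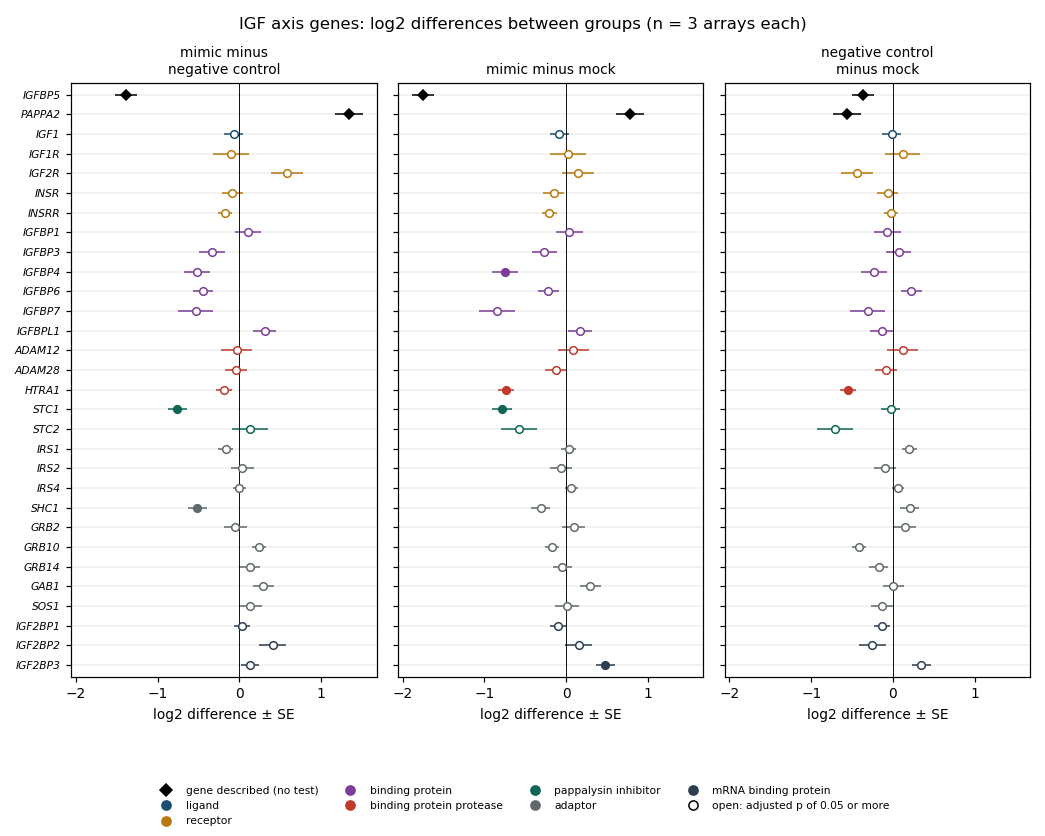
Log2 differences (x axis, bars are SE, n = 3 arrays per group) of IGFBP5, PAPPA2 and the 28 measured genes of the IGF axis list for mimic minus NC, mimic minus mock and NC minus mock, coloured by role. Filled circles passed an adjusted p under 0.05, and diamonds are the genes described, whose calls are not drawn. IGFBP5 and PAPPA2, picked with their values known, lie farther from 0 than the listed genes in the mimic against NC.

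Downstream of the receptor, 10 of 26 genes of the PI3K, AKT and mTOR list were measured. Between mimic and NC 0 passed by limma, 4 had an unadjusted p under 0.05, beside 16% of all genes, and the median was 0.18. Between mimic and mock 1 rose (median 0.12), beside 2.28% of all genes. In NC against mock 0 passed and 2 had an unadjusted p under 0.05, beside 11% of all genes (median -0.0055). The gene that rose was PHLPP2, a phosphatase that removes an activating phosphate from AKT. It averaged 5.54 ± 0.31 in mimic, 5.21 ± 0.10 in NC and 4.84 ± 0.11 in mock (SD, n = 3 each). The difference from mock was 0.70 ± 0.15 (limma, adjusted p = 0.033), a call kept only without mimic 3, NC 2 or NC 3 when arrays were left out (up to 0.121). MTOR, the kinase of growth control, was at 7.77 in mimic, 7.36 in NC and 7.33 in mock. PDPK1, which activates AKT, was at 6.30, 5.93 and 6.18, and TSC2, a brake on mTOR, at 4.84, 4.50 and 4.55. AKT2 was at 4.36 in mimic, 4.12 in NC and 4.17 in mock, and these 4 genes did not pass (limma, lowest adjusted p = 0.0779, for PDPK1 against NC).

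Of the list of FOXO relatives and regulators 12 of 25 genes were measured, and 0 passed by limma in any comparison. Of the 12, 0 in the mimic against NC, 2 in the mimic against mock and 2 in NC against mock had an unadjusted p under 0.05, beside 16%, 17.5% and 11% of all genes. FOXO3, the paralogue, averaged 4.87 ± 0.51 in mimic, 4.87 ± 0.38 in NC and 4.86 ± 0.26 in mock (SD, n = 3 each). Its arrays spread widely, so a small difference was not detectable. FOXO4 was at 3.13 in mimic, 3.38 in NC and 3.37 in mock (limma, adjusted p = 0.519 against NC). SIRT1, a deacetylase of FOXO proteins, was at 7.12 in mimic, 6.99 in NC and 7.76 in mock (limma, adjusted p = 0.103 for mimic against mock and 0.127 for NC against mock). The acetylases EP300 (6.78, 6.77 and 7.18 in mimic, NC and mock) and CREBBP (7.32, 7.16 and 7.46) and the kinase CDK2 (7.35, 7.16 and 7.05) passed in no comparison.

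The FOXO target list sets other targets beside FBXO32, and 40 of its 53 genes were measured. Against NC, the mimic had 1 rise, 1 fall and 38 that did not pass. Of the 40, 25 lay above 0 (median 0.066), beside 7238 of all 14884 genes (median -0.0044). Against mock, 2 rose, 3 fell and 35 did not pass. Here 25 lay above 0 (median 0.034), beside 7462 of all 14884 genes (median 0.00035). In NC against mock 0 passed by limma, 10 had an unadjusted p under 0.05, beside 11% of all genes, and the median was -0.030. The share called was 5% in the mimic against NC and 12.5% in the mimic against mock, beside 3.18% and 3.9% of all genes.

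CTSL fell in both mimic comparisons, and it is also the gene nearest to IGFBP5 and FBXO32 after each other. Its log2 signal was 9.08, 9.29 and 9.04 in mimic arrays, against 9.95, 10.05 and 9.94 in NC arrays and 10.17, 10.09 and 10.33 in mock arrays. The 3 groups did not overlap, and the array order within groups resembled that of FBXO32 (r of the deviations 0.82). The difference was -0.84 ± 0.096 against NC (limma, adjusted p = 0.00268) and -1.06 ± 0.096 against mock (limma, adjusted p = 0.000821), kept whichever array was left out.

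SESN2, a stress-induced sestrin that restrains mTOR, rose in the mimic against NC. It was at 6.32, 5.84 and 5.89 in mimic arrays, against 4.26, 4.86 and 4.86 in NC arrays and 5.27, 5.15 and 5.88 in mock arrays. The mimic arrays lay above all NC arrays and overlapped the mock arrays. The difference from NC was 1.36 ± 0.23 (limma, adjusted p = 0.0141, and 0.0597 without mimic 1), and from mock 0.58 ± 0.23 (limma, adjusted p = 0.216). SESN2 had the order of PAPPA2, with mimic highest and NC lowest.

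KLF6, a zinc finger transcription factor, rose in the mimic against mock (0.83 ± 0.093, limma, adjusted p = 0.00215), kept whichever array was left out. It averaged 7.53 ± 0.10 in mimic, 7.15 ± 0.062 in NC and 6.70 ± 0.13 in mock (SD, n = 3 each), and the 3 groups did not overlap. BCL6, a transcriptional repressor, fell against mock (-0.84 ± 0.17, limma, adjusted p = 0.0277) and averaged 7.50 in mimic, 7.83 in NC and 8.34 in mock. CAT, the antioxidant enzyme catalase, fell against mock (-0.77 ± 0.17, limma, adjusted p = 0.0403) and averaged 5.27, 5.76 and 6.04. When arrays were left out, the BCL6 call was kept only without NC 2, NC 3 or mock 2 (up to 0.0961), and the CAT call only without NC 2 or mock 2 (up to 0.137). The group means of BCL6 and CAT thus had the order of FBXO32, and those of KLF6 the reverse. Unlike for FBXO32, NC and mock overlapped for BCL6 and CAT, and mimic and NC overlapped for BCL6.

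Of the target genes that did not pass, those with the largest differences were DEPP1, S1PR1, SPRY2 and ERRFI1. DEPP1, an autophagy regulator, averaged 4.69 in mimic, 5.44 in NC and 4.51 in mock (limma, lowest adjusted p = 0.0874). S1PR1, a lipid receptor, averaged 4.56, 4.22 and 5.14 (limma, lowest adjusted p = 0.0905). The feedback inhibitors of receptor kinases SPRY2 (6.64, 6.24 and 6.07) and ERRFI1 (9.71, 9.69 and 9.16) were lowest in mock.

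**Figure D5:**
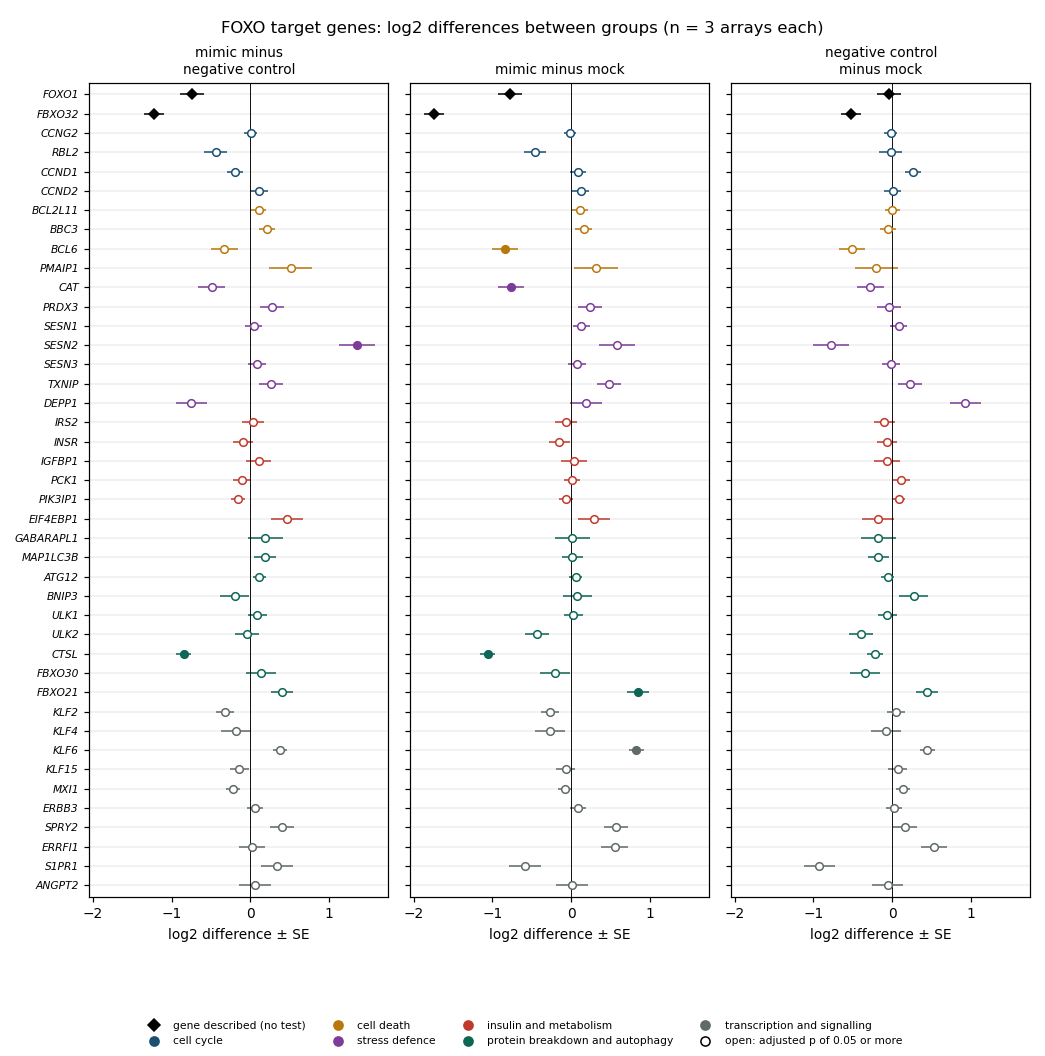
Log2 differences (x axis, bars are SE, n = 3 arrays per group) of FOXO1, FBXO32 and the 40 measured FOXO target genes for mimic minus NC, mimic minus mock and NC minus mock, coloured by role. Filled circles passed an adjusted p under 0.05, and diamonds are the genes described, whose calls are not drawn. CTSL is the lowest of the listed genes in both mimic comparisons.

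FBXO32 acts with the SCF core as 1 of many F-box proteins, and 56 of 69 further genes of that list were measured. Against NC, 1 rose in the mimic and 55 did not pass (median 0.024), and in the mimic against mock 3 rose, 1 fell and 52 did not pass (median 0.082). In NC against mock 0 passed by limma, 8 had an unadjusted p under 0.05, beside 11% of all genes, and the median was 0.036. The share called was 1.79% in the mimic against NC and 7.14% in the mimic against mock, beside 3.18% and 3.9% of all genes. FBXO32, picked with its values known, had a lower difference than any of the 56 in both mimic comparisons, whose lowest were -0.48 and -0.49.

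The F-box genes that passed did so by smaller amounts. FBXL12 averaged 5.00 ± 0.063 in mimic, 4.39 ± 0.31 in NC and 4.40 ± 0.087 in mock (SD, n = 3 each), and rose against both (0.61, limma, adjusted p = 0.0483 against NC, and 0.60, adjusted p = 0.0467 against mock). FBXO21, also on the target list, rose against mock (0.85 ± 0.14, limma, adjusted p = 0.0142), at 5.59 in mimic, 5.18 in NC and 4.74 in mock. FBXO28 rose against mock (0.44 ± 0.088, limma, adjusted p = 0.0275), and FBXO25 fell (-0.49 ± 0.10, limma, adjusted p = 0.0365). When arrays were left out, FBXL12 passed against NC only without NC 2 and against mock only without NC 1 or NC 2 (up to 0.152). FBXO21 was lost without mimic 1, mimic 3 or mock 1 (up to 0.0658), FBXO28 without any mimic array, mock 1 or mock 3 (up to 0.0965), and FBXO25 passed only without mimic 3 or NC 2 (up to 0.128). FBXO25 was at 3.98 in mimic, 4.36 in NC and 4.47 in mock. CCNF (5.78, 5.62 and 5.15 in mimic, NC and mock), FBXO48 (3.05, 3.23 and 2.68), FBXL17 (3.92, 3.85 and 4.36) and FBXO27 (3.14, 3.28 and 3.62) did not pass. MYOD1, a muscle transcription factor known as an FBXO32 substrate, was at 2.18 in mimic, 2.30 in NC and 2.29 in mock.

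Counting each gene once, 141 listed genes were measured. In the mimic against NC 2 rose and 3 fell, in the mimic against mock 6 rose and 7 fell, and in NC against mock 0 rose and 1 fell, beside 3.18%, 3.9% and 0.645% of all genes called in either direction. NC against mock asks what an unrelated small RNA does. Here 96 of all genes passed, 61 with the replicate numbers as a block, 18 with the 6 NC and mock arrays alone, and 0 by limma with the block on those 6 arrays, where 1735 had an unadjusted p under 0.05. NC minus mock was -0.37 for IGFBP5, -0.56 for PAPPA2, -0.52 for FBXO32 and -0.04 for FOXO1, so 3 of the 4 genes were lower in NC than in mock by more than the SE of 0.13 to 0.17. The mimic and NC comparisons with mock share the mock arrays, and both mimic comparisons share the mimic arrays, so their values are given side by side only.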

How the data were processed

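The values are log2 signals that the authors deposited, made with RMA per the submitters' processing notes. RMA corrects the background, makes the arrays' distributions alike and sums each feature's probes. No source used here gives its version. Per the labels, 1 ug of Trizol-extracted RNA was labelled with a FlashTag biotin kit for a whole-transcript array. The table held 53617 features and 0 missing values on 9 arrays, grouped by the labels' treatment. The platform annotation gave 16098 features 1 symbol. The other 37519 were not used. For 779 genes with several features the brightest over all arrays stood for the gene, leaving 14884 genes with no filter.

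The test was limma's (version 3.58.1 in R 4.3.3, lmFit with eBayes) on all 9 arrays, with 1 mean per group and 6 residual degrees of freedom. Its two-sided p-values were adjusted by Benjamini and Hochberg over all genes of a comparison. A gene passed at an adjusted p under 0.05. The pipeline was tested on simulated data. The number of arrays limits the precision, and array signals give no depth.

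The 4 genes, the 5 lists, the tests and the alternatives were chosen with earlier results of these data known. From each list, every gene that passed was named, and otherwise up to 4 genes with the largest difference. The paralogues and receptors FOXO3, FOXO4, IGF1 and IGF1R were named whatever their value, and so were the 5 genes with the highest Pearson's r with each of the 4, leaving out small RNA and uncharacterised loci. MYOD1 and the cell type markers were named besides. PAPPA, FOXO6, TRIM63 and IGF2 were not analysed here. Group sizes are too small for a test on outlying arrays.

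Whether replicate numbers pair the samples was checked by correlating the arrays' deviations from their group means across genes. Same-numbered NC and mock arrays gave r = 0.15, 0.23 and 0.15, and differently numbered ones -0.158 to 0.0224. Arrays with different numbers reached 0.24 elsewhere, for mimic 1 with NC 2. Whether the numbers pair NC with mock was not settled, and no label says so. The replicate block was run only as an alternative. For the mimic, r with same-numbered arrays of NC and mock was -0.29 to -0.054.

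Alternatives were array weights, repeated quantile normalization, median centring, averaging a gene's features, dropping genes under the 25th percentile of signal, a robust mean-variance trend, fitting only the 6 arrays compared, the replicate block, and leaving out each array. A replicate block on the 6 NC and mock arrays alone, and leaving out mock 2 and NC 2 together, were added after seeing the data. Promoter windows are RefSeq's, on GRCh38.p14.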

Additional observations from a re-analysis of the deposited data

How the results depend on the processing

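The signs of the IGFBP5, PAPPA2 and FBXO32 differences held under every alternative run, and so did those of FOXO1 against NC and mock. FOXO1 against NC and mock and PAPPA2 against mock were not past the threshold with only the 6 arrays compared. The same held without mock 2 and NC 2 together, and for PAPPA2 against mock with the replicate block. IGFBP5, PAPPA2, FOXO1 and FBXO32 were picked with their values known, so nothing is read from calls kept or lost. The FOXO1 difference between NC and mock turned to 0.0734 without mock 1. When arrays were left out in turn, the log2 difference of mimic minus NC ranged from -1.47 to -1.31 for IGFBP5, 1.17 to 1.43 for PAPPA2, -0.91 to -0.65 for FOXO1 and -1.29 to -1.17 for FBXO32. For mimic minus mock the ranges were -1.84 to -1.61, 0.61 to 0.92, -0.95 to -0.66 and -1.87 to -1.61, and for NC minus mock -0.45 to -0.22, -0.71 to -0.41, -0.11 to 0.07 and -0.65 to -0.39, in the same gene order.

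The counts of genes that passed moved more. In the mimic against NC 473 passed, 251 with only the 6 arrays compared, 292 with the replicate block and 199 to 431 when an array was left out. In the mimic against mock 580 passed, 904 with array weights, 321 with 6 arrays, 346 with the replicate block and 188 to 650 when an array was left out. In NC against mock 96 passed, 18 with 6 arrays, 61 with the replicate block, 28 without mock 2 and NC 2 together and 21 to 112 when an array was left out. With the replicate block on those 6 arrays alone 0 passed by limma, and 1735 had an unadjusted p under 0.05. The fits on 6 arrays and those that leave out an array have fewer degrees of freedom. The cause of the other shifts was not tested.

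Of 19 passing results among the listed genes named, 6 (STC1 and CTSL in both mimic comparisons, HTRA1 and KLF6 in the mimic against mock) were kept whichever array was left out and under every other alternative. Of 2145 values of the named listed genes under alternatives, 0 turned a call round, 120 lost one, 19 gained one and 1, of PDPK1 in the mimic against mock, moved by more than its SD without a call. With the replicate block, in the mimic comparisons, calls were lost for IGFBP4 (adjusted p = 0.0629), IGF2BP3 (0.0888), CAT (0.0733), FBXL12 (0.0757 against NC and 0.0706 against mock), FBXO25 (0.0796) and FBXO28 (0.0568). No label pairs the mimic arrays with the others, and their r with same-numbered arrays was negative.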

Other observations

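The nearest measured protein-coding neighbours of the 4 genes in the genome were looked up after the values were seen. RPL37A and TNP1 lie beside IGFBP5, KIAA0040 and ASTN1 beside PAPPA2, COG6 and MRPS31 beside FOXO1, and NTAQ1 and KLHL38 beside FBXO32. By limma, 0 of the 8 passed an adjusted p under 0.05 in any of the 3 comparisons, and 1, 2 and 0 had an unadjusted p under 0.05 in the mimic against NC, the mimic against mock and NC against mock, beside 16%, 17.5% and 11% of all genes. MRPS31, a protein of the mitochondrial ribosome, came nearest, with means of 5.55 in mimic, 5.08 in NC and 5.04 in mock (limma, adjusted p = 0.101 against NC and 0.0656 against mock, n = 3 each). The difference was 0.47 against NC and 0.51 against mock, opposite in sign to FOXO1. RPL37A, a ribosomal protein, was at 4.24 in mimic, 4.18 in NC and 4.13 in mock, a difference of 0.064 from NC, where that of IGFBP5 was -1.39.

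A negative r was rarer than a positive one among the extremes for IGFBP5 and FBXO32. With each of them 14 genes had a Pearson's r of -0.95 or lower over the 9 arrays, where 22 and 20 had one of 0.95 or higher. For PAPPA2 and FOXO1 2 genes each had an r of -0.95 or lower. Between the 4 genes, r over the 9 arrays was -0.69 for PAPPA2 with IGFBP5, -0.63 with FBXO32 and -0.80 with FOXO1, and 0.84 for FOXO1 with IGFBP5 and with FBXO32. These values hold the differences between groups, and the deviations within groups gave the opposite sign for PAPPA2 with IGFBP5 and FBXO32 and for FOXO1 with IGFBP5 and FBXO32.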
